A study of Arabidopsis thaliana with 87 samples.

Results

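The small RNAs described here are the 23 and 24 nt reads that the authors assigned to RUBY, a transgene whose enzymes turn tyrosine into a red betalain pigment, in leaves of Arabidopsis thaliana. They were chosen by length alone, as the count at 23 nt and at 24 nt on each of the strands that the deposited files call plus and minus. This gave 4 of 22 classes of length and strand in each of 87 libraries, or 348 of 1914 values. The classes held 666048 of 20686831 RUBY reads (3.22%), of which 210358 were 23 nt and 455690 were 24 nt long. Both lengths are small parts of the pool, since 21 nt reads made up 76.2% of it.

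The study asked how small RNA relates to loss of transgene expression, seen as leaves that are green where an active transgene would make them red. All plants carried RUBY, so no library came from a plant without the transgene, and all leaves were 4 weeks old. Plants grew at 22 °C in days of 18 h light and 6 h dark. The 35S promoter of cauliflower mosaic virus drove RUBY in 69 libraries and ZmUBQ, named for a maize ubiquitin gene, in 18 libraries. The 35S libraries of genotype Col-0, the common laboratory wild type, covered 9 fully green leaves, 13 green parts, 2 always green plants, 13 red parts, 13 fully red leaves and 11 always red plants. A further 8 libraries came from always red 35S plants of genotype dcl1234, in which the Dicer-like genes that cut double-stranded RNA into small RNAs are mutated. The ZmUBQ libraries, all in Col-0, covered 7 fully green leaves, 7 fully red leaves and 4 always red plants. A transgenic event is 1 insertion line, named MK and a number. The dcl1234 libraries came from 2 events, the ZmUBQ libraries from 3 and the always green libraries from 1, so libraries of 1 event are not independent insertions and all p-values measure the spread between libraries.

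In plants, small RNAs of different lengths are made by different Dicer-like enzymes. DCL4 and DCL2 cut the 21 and 22 nt small interfering RNAs that guide cleavage and further amplification of messenger RNA in post-transcriptional silencing. DCL3 cuts the 24 nt small interfering RNAs that guide DNA methylation at transposons and silenced promoters, and it can leave some 23 nt products beside them. The length alone does not show which enzyme cut a read, and RNA that is merely broken down gives reads of every length. The files hold counts by length and strand and no read sequence or position, so where along RUBY these small RNAs lie is not described here. The labels do not say which of the strands is that of the RUBY messenger RNA.

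Levels are given as RPM, the reads of a class per 1000000 mapped reads of its library. Libraries held 0.905 to 31.4 M mapped reads, where M is 1000000, and 6 had under 8 M. A library held between 74 and 73659 reads of 23 and 24 nt together. A count of 3 reads, the limit that a count of 0 allows, stood for 0.0955 to 3.32 RPM, and such limits and intervals within 1 library cover counting error only. Folds are ratios of means on the log2(RPM + 1) scale, which understates changes at a few RPM or less. Differences were tested by two-sided permutation of libraries between groups, and p-values were adjusted over the 22 classes and 13 comparisons together. A difference was called at adjusted p under 0.05. Beside each count of calls by this test stands the share of the 22 classes that it called in the same comparison.

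The 24 nt small RNAs were most abundant in always green plants. The 2 libraries of event MK017 held 1404 and 907 RPM of plus strand 24 nt reads and 1248 and 873 RPM on the minus strand. Their 23 nt reads reached 806 and 524 RPM on the plus strand and 401 and 289 RPM on the minus strand. In fully green 35S leaves, 24 nt reads ranged from 150 through a median of 595 to 1203 RPM on the plus strand. The minus strand ran from 251 through 730 to 1195 RPM. At 23 nt the same leaves held 97.1 to 696 RPM (median 338) on the plus strand and 75.2 to 375 RPM (median 252) on the minus strand. The lowest value of all 4 classes belonged to MK044 number 3 and the highest to MK040 number 1.

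Fully red 35S leaves had far less of both lengths, above all on the minus strand. Plus strand 24 nt reads there ran from 17.3 through 30.5 to 54.2 RPM, and minus strand 24 nt reads from 0 through 4.47 to 34.4 RPM (lowest, median, highest). At 23 nt they held 16.0 to 48.0 RPM (median 27.6) on the plus strand and 0 to 11.4 RPM (median 1.48) on the minus strand. Both zeros belong to MK044 number 3, a library of 0.905 M mapped reads in which 3 reads would have been 3.32 RPM. No fully green library overlapped with a fully red one in any of the 4 classes. Overlap was not counted over the 22 classes, but the groups did overlap at 25 nt plus. Fully green MK044 number 3 held 909 such reads in 27754200 mapped reads, and fully red MK016 number 3 held 684 in 15635649. All 4 classes were called higher in fully green leaves (exact permutation, each adjusted p = 3.19e-05), as were 100% of the 22 classes. The fold was 77.3 for 24 nt minus (95% interval 37.4 to 161) and 58.9 for 23 nt minus (32.5 to 107). The plus strand folds were smaller, at 14.4 for 24 nt (9.13 to 22.7) and 9.58 for 23 nt (6.23 to 14.7). Each of 9 pairs of libraries with the same event and number was higher in the green member in all 4 classes.

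Always red 35S plants lay lower still. Their plus strand 24 nt reads ranged from 7.59 through 17.5 to 38.3 RPM and their minus strand 24 nt reads from 1.15 through 3.04 to 4.30 RPM. The 23 nt reads ranged from 7.33 to 37.1 RPM (median 18.3) on the plus strand and from 0.191 to 1.67 RPM (median 0.872) on the minus strand. MK034 number 2 was lowest in all 4 classes, and its minus strand values rest on 18 reads at 24 nt and 3 reads at 23 nt. The range of always red plants overlapped with that of fully red leaves in each class. Fully red leaves were called higher in 3 of the 4 classes, beside 81.8% of the 22 classes. The folds were 1.65 for 24 nt plus (adjusted p = 0.0105), 2.08 for 24 nt minus (adjusted p = 0.0338) and 1.81 for 23 nt minus (adjusted p = 0.0255), all by permutation. At 23 nt plus the fold was 1.39 (95% interval 1.02 to 1.90; permutation, adjusted p = 0.0547). With 1 mean per event, which leaves 8 and 6 values, none of the 3 calls held (exact permutation, adjusted p = 0.0655 for 24 nt plus, 0.205 for 24 nt minus and 0.198 for 23 nt minus). Both minus strand calls also ended at a pseudocount of 0.1 RPM (permutation, adjusted p = 0.159 for 24 nt and 0.0831 for 23 nt), and the 24 nt minus call without any of 6 libraries, namely always red MK034 number 2 and fully red MK016 numbers 3 and 5, MK040 numbers 1 and 2 and MK045 number 3 (lowest without MK016 number 5, 0.88 on the log2 scale, permutation, adjusted p = 0.0545).

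Set against always red plants, the 2 always green libraries were higher in 4 of 4 classes with no overlap, beside 100% of the 22 classes. The 24 nt fold was 270 on the minus strand and 55.7 on the plus strand, and the 23 nt fold 184 and 32.1 (exact permutation, each adjusted p = 0.0210). That p-value is set by the smallest raw p that 2 libraries against 11 allow, 0.0128. Against fully green leaves, 0 of 4 classes were called (exact permutation, 0 at an unadjusted p under 0.05, and 0 by edgeR), beside 0% of the 22 classes by permutation. Of the 22 classes, edgeR called 5. The 24 nt fold was 2.34 on the plus strand (95% interval 0.634 to 7.75) and 1.68 on the minus strand (0.628 to 4.05), with always green plants higher by the mean in both.

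Green and red parts, read here as tissue of 1 colour from leaves that show both, stood between the wholly coloured leaves. In green parts, 24 nt reads ran from 47.8 through 258 to 832 RPM on the plus strand and from 61.9 through 346 to 953 RPM on the minus strand. Red parts held 12.1 through 41.9 to 484 RPM on the plus strand and 8.74 through 24.7 to 547 RPM on the minus strand. At 23 nt the medians were 151 and 134 RPM in green parts and 36.5 and 12.1 RPM in red parts, plus strand first. The groups overlapped at 24 nt, since red parts of MK016 number 5, MK025 number 1 and MK040 numbers 1 and 2 lay above green parts of MK043 number 2 on both strands. Red parts of MK016 number 5, at 484 and 547 RPM of 24 nt reads, also exceeded their own green parts at 161 and 262 RPM. That pair was the exception among 13 in all 4 classes. All 4 classes were called higher in green parts, beside 86.4% of the 22 classes. The fold was 7.36 for 24 nt minus (95% interval 3.05 to 17.7; permutation, adjusted p = 0.000830) and 4.08 for 24 nt plus (1.90 to 8.74; adjusted p = 0.00309, permutation). For 23 nt it was 5.75 on the minus and 3.18 on the plus strand (permutation, adjusted p = 0.00183 and 0.00662).

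By permutation, red parts differed from fully red leaves on the minus strand. There, red parts exceeded fully red leaves 5.07-fold at 24 nt (95% interval 2.04 to 12.7) and 5.38-fold at 23 nt (2.39 to 12.2), both by permutation (adjusted p = 0.00250 and 0.000830). In the pairs, red parts were higher in 12 of 13 at 24 nt and in 13 of 13 at 23 nt. On the plus strand the folds were 1.63 at 24 nt (95% interval 0.907 to 2.96; permutation, adjusted p = 0.129) and 1.40 at 23 nt (0.840 to 2.37; permutation, adjusted p = 0.232), so 2 of 4 classes were called, beside 68.2% of the 22 classes. The edgeR test called plus strand 24 nt reads higher in red parts (1.43 on the log2 scale, adjusted p = 0.00774), as did the permutation test without red parts of MK044 number 3 (0.87 on the log2 scale, adjusted p = 0.0483). It also called plus strand 23 nt reads higher in red parts (0.99 on the log2 scale, edgeR, adjusted p = 0.0348). The edgeR count was thus 4 of 4 classes, beside 18 of the 22 classes by edgeR. How much green tissue the red parts held was not tested.

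Whether fully green leaves were called above green parts differed between the unpaired and the paired test. Over all libraries 1 of 4 classes was called, 24 nt minus at 2.07-fold (permutation, adjusted p = 0.0498), beside 4.55% of the 22 classes. Blocked by the 9 pairs that share event and number, fully green leaves were higher in 9 of 9 pairs in each class, at 1.65-fold to 1.78-fold for 24 nt and 1.57-fold to 1.75-fold for 23 nt (exact sign-flip permutation, each adjusted p = 0.00716). The share of the 22 classes called with pairs as blocks was not determined. The pairs hold 9 of the 13 libraries of green parts, so the tests differ in libraries as well as in pairing. The unpaired call ended when any of 15 of the 22 libraries was left out, all but fully green MK043 number 1 and MK044 number 3 and green parts of MK016 numbers 3 and 4, MK040 numbers 1 and 2 and MK045 number 3. It was lowest without green parts of MK043 number 2 (0.86 on the log2 scale, exact permutation, adjusted p = 0.0751), and edgeR did not make it (adjusted p = 0.109).

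In dcl1234, the strands went opposite ways. Always red dcl1234 plants held 30.7 through 34.8 to 40.6 RPM of plus strand 24 nt reads and 29.5 through 34.9 to 40.9 RPM of plus strand 23 nt reads. Minus strand levels ran from 0.402 through 0.742 to 1.59 RPM at 24 nt and from 0.134 through 0.423 to 0.708 RPM at 23 nt. The 8 libraries were alike in their plus strand levels, and their minus strand medians rest on 12 reads at 24 nt and 6.5 reads at 23 nt. Relative to always red Col-0 plants, 24 nt reads were 1.80-fold higher on the plus strand (95% interval 1.26 to 2.57; exact permutation, adjusted p = 0.00662). On the minus strand they were lower, at 0.478 of the Col-0 level (0.384 to 0.597; exact permutation, adjusted p = 0.000324). The 23 nt reads were 1.75-fold higher on the plus strand and at 0.762 of the Col-0 level on the minus strand (exact permutation, adjusted p = 0.00499 and 0.0195). The groups overlapped in each class, and all 4 classes were called, beside 95.5% of the 22 classes. With 1 mean per event, 2 values against 6, none of the 4 calls held (exact permutation, adjusted p = 0.244 for plus at both lengths, 0.0655 for 24 nt minus and 0.197 for 23 nt minus). The 24 nt minus value comes from the smallest raw p that 2 values against 6 allow, so it could not have passed. The 23 nt minus call also ended with values under 1 RPM set to 0 (exact permutation, adjusted p = 0.272).

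Red ZmUBQ tissue held 23 and 24 nt reads on both strands, at lower median levels than fully green ZmUBQ leaves. Fully green ZmUBQ leaves held 29.4 through 86.7 to 243 RPM of plus strand and 37.9 through 105 to 299 RPM of minus strand 24 nt reads. Fully red ZmUBQ leaves held 14.5 through 28.4 to 35.3 RPM and 9.38 through 22.7 to 35.6 RPM. In the 4 always red ZmUBQ libraries, plus strand 24 nt reads were 20.5 and 18.9 RPM in MK054 numbers 1 and 2 and 28.1 and 29.2 RPM in MK056 numbers 2 and 4. Their minus strand 24 nt reads were 20.7, 15.9, 24.3 and 33.4 RPM in the same order. The 4 always red libraries thus lay within the range of the 7 fully red ones on both strands. Median 23 nt levels were 37.1 and 41.9 RPM in fully green, 9.71 and 12.4 RPM in fully red and 10.2 and 11.4 RPM in always red ZmUBQ libraries, plus strand first.

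Fully green ZmUBQ leaves had more of each class than fully red ones, with 4 of 4 classes called, beside 81.8% of the 22 classes. The 24 nt fold was 5.43 on the minus strand (95% interval 2.52 to 11.8; exact permutation, adjusted p = 0.00189), with no overlap, and 3.23 on the plus strand (1.63 to 6.46; exact permutation, adjusted p = 0.0117). At 23 nt the folds were 3.80 on the minus and 3.26 on the plus strand (exact permutation, adjusted p = 0.00309 and 0.0107). In 2 of the 7 pairs, plus strand 24 nt reads were no higher in the green leaf. MK054 number 3 held 29.4 RPM in green and 29.9 RPM in red, and MK056 number 5 held 32.0 RPM in green and 35.3 RPM in red. With pairs as blocks the plus strand 24 nt call ended (1.69 on the log2 scale, exact sign-flip permutation, adjusted p = 0.0755). Fully red and always red ZmUBQ libraries differed in 0 of 4 classes (exact permutation, 0 at an unadjusted p under 0.05, and 0 by edgeR), beside 0% of the 22 classes. The 95% intervals of their 24 nt folds ran from 0.649 to 1.55 on the plus strand and from 0.405 to 1.51 on the minus strand.

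The promoters were then compared within a colour, with the limit that the ZmUBQ libraries form a labelled set of their own, so promoter and library set cannot be told apart. In fully green leaves, 24 nt reads under ZmUBQ stood at 0.169 of the 35S level on each strand (exact permutation, adjusted p = 0.00189 for plus and 0.000830 for minus). The 23 nt reads stood at 0.139 on the plus and 0.206 on the minus strand (exact permutation, each adjusted p = 0.000830). All 4 classes were called lower, beside 100% of the 22 classes. The 24 nt plus call ended with 1 mean per event (exact permutation, adjusted p = 0.0655). In fully red leaves the picture depended on the strand. At 23 nt, ZmUBQ leaves were at 0.407 of the 35S level on the plus strand, with no overlap, and 3.21-fold higher on the minus strand (exact permutation, adjusted p = 0.000135 and 0.00411). At 24 nt, they were at 0.755 on the plus strand (95% interval 0.546 to 1.04) and 2.41-fold higher on the minus strand (1.06 to 5.53), and neither was called (exact permutation, adjusted p = 0.107 and 0.0541). These are 2 calls in 4 classes, beside 72.7% of the 22 classes, and the minus strand 24 nt difference passed without 35S MK040 number 2, MK045 number 3 or MK016 number 5 or ZmUBQ MK054 number 4 (1.45 on the log2 scale without MK016 number 5, exact permutation, adjusted p = 0.0219).

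Always red ZmUBQ plants had more minus strand reads of both lengths than always red 35S plants. The 24 nt minus fold was 6.14 (95% interval 4.45 to 8.42) and the 23 nt minus fold 6.82 (5.00 to 9.30), with no overlap (exact permutation, each adjusted p = 0.00230). On the plus strand the 24 nt fold was 1.22 (0.719 to 2.06; exact permutation, adjusted p = 0.473), and 23 nt reads were 1.76-fold lower than under 35S (exact permutation, adjusted p = 0.0493). The last call ended when any of 11 of the 15 libraries was left out, all but MK056 number 4 of ZmUBQ and MK034 number 2 and both MK044 libraries of 35S, and with 1 mean per event (2 values against 6) the minus strand calls ended too (exact permutation, each adjusted p = 0.0655). For the minus strand that value comes from the smallest raw p that 2 values against 6 allow. In all, 3 of 4 classes were called, 2 higher and 1 lower, beside 72.7% of the 22 classes, of which 12 were lower under ZmUBQ and 4 higher.

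These folds are per mapped read of the whole library. Scaled instead by TMM over the 22 RUBY classes, which measures each class against the library's other RUBY reads and moved the median class by -7.38 to 2.48 on the log2 scale, edgeR's calls changed from 28 higher and 8 lower to 15 higher and 13 lower. These are calls among the 52 tests of the 23 and 24 nt classes. Calls by direction over all 22 classes were not counted, so the change is not shown to be particular to these lengths. On the TMM scale, fully green 35S leaves had lower plus strand levels than fully red ones (24 nt plus -1.29 and 23 nt plus -1.97 on the log2 scale) and higher minus strand levels (24 nt minus 1.09 and 23 nt minus 1.09; edgeR, adjusted p at most 0.00296 for the 4 classes). Fully green ZmUBQ leaves were then lower than fully red ones in all 4 classes (24 nt plus -1.24 and 24 nt minus -0.54; edgeR, adjusted p = 2.6e-06 and 0.0458).

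Whether 24 nt is a peak or a point on a slope was read within each library from its neighbours on the same strand. A library counted as a peak when 24 nt reads were more frequent than 23 nt reads and than 25 nt reads, each by an exact binomial interval at 95% confidence that lay above 50%. For the minus strand, 77 of 87 libraries had a peak, 4 were not resolved and 6 had too few reads, under 20 in a pair of lengths. The plus strand had a peak in 59, and 28 were not resolved. No library showed a steady rise, a steady fall or a trough at 24 nt by this rule. A peak stood on both strands in 9 of 9 fully green, 13 of 13 green parts and 2 of 2 always green 35S libraries, and in 7 of 7 fully green and 4 of 4 always red ZmUBQ libraries.

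In the red 35S groups the peak was more frequent on the minus than on the plus strand. Among red parts, 13 of 13 libraries had it on the minus and 11 of 13 on the plus strand. The numbers were 12 and 7 of 13 among fully red leaves, and 10 and 0 of 11 among always red plants, whose plus strand was not resolved in all 11. In dcl1234 no library was called a peak on either strand, but the rule could not decide there. All 8 were not resolved on the plus strand, and on the minus strand 3 were not resolved and 5 had too few reads. Fully red ZmUBQ leaves showed it in 7 of 7 libraries on the minus and 6 of 7 on the plus strand.

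The ratio of 24 to 23 nt reads gave the height of the peak. On the minus strand its median was 3.19 in fully green leaves, 2.98 in green parts, 3.07 in always green plants, 2.50 in red parts, 3.14 in fully red leaves and 3.67 in always red plants of 35S. The corresponding plus strand medians were 1.77, 1.73, 1.74, 1.40, 1.12 and 1.03. Fully green and fully red leaves thus had a plus strand ratio that differed by 0.58 on the log2 scale (95% interval 1.32-fold to 1.70-fold; exact permutation, adjusted p = 0.000261). For the minus strand ratio the fold was 0.941 (95% interval 0.799 to 1.08; exact permutation, adjusted p = 0.747). Red parts had a lower minus strand ratio than fully red leaves, by 1.41-fold (95% interval 1.20 to 1.67; permutation, adjusted p = 0.000260), lower in 12 of 12 pairs. They also had a lower ratio than green parts on both strands (permutation, adjusted p = 0.00180 for plus and 0.00267 for minus).

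The ratio of 24 to 25 nt reads drew the same line between the strands for fully green and fully red leaves. On the minus strand its medians in the 35S Col-0 groups ran from 7.07 in red parts to 9.24 in fully green leaves. The plus strand medians were 5.02 in fully green leaves, 4.57 in green parts, 4.33 in always green plants, 2.04 in red parts, 1.24 in fully red leaves and 1.16 in always red plants. Fully green leaves exceeded fully red ones 3.90-fold on the plus strand with no overlap (95% interval 3.32 to 4.56; exact permutation, adjusted p = 0.000105). The minus strand fold was 1.05 (0.896 to 1.22; exact permutation, adjusted p = 0.728), but the difference was called with 5 reads added to each count (0.46 on the log2 scale, adjusted p = 0.00290). Red parts had no minus strand call against fully red leaves, but were called lower with pairs as blocks (-0.48, exact sign-flip permutation, adjusted p = 0.0271). Without libraries under 8 M mapped reads they were called below fully red leaves (-0.58, permutation, adjusted p = 0.000953). Green parts then exceeded red parts too (0.41, permutation, adjusted p = 0.00512).

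In dcl1234 the plus strand profile was flat around 24 nt. The 24 to 23 nt ratio there had a median of 1.03 (range 0.939 to 1.13) and the 24 to 25 nt ratio a median of 1.05 (range 0.934 to 1.20). Of all plus strand reads, a median of 9.45% were 23 nt and 9.61% were 24 nt long, where an even spread over 11 lengths would give 9.09% to each. Minus strand 24 nt reads were fewer than 25 nt reads, at a median ratio of 0.545 against 8.00 in always red Col-0 plants, with no overlap (0.0768-fold, 95% interval 0.0542 to 0.109; exact permutation, adjusted p = 0.000260; 0.0714 with 1 mean per event). The value with event means comes from the smallest raw p that 2 values against 6 allow. The plus strand ratios of always red Col-0 plants were nearly as flat, at medians of 1.03 and 1.16. Neither differed from dcl1234 by the test (exact permutation, adjusted p = 0.747 for 24 to 23 nt and 0.101 for 24 to 25 nt), and the intervals of the folds were 0.939 to 1.14 and 0.850 to 1.00. At 24 to 23 nt on the minus strand, 3 of 8 dcl1234 libraries had enough reads, and no difference was called (exact permutation, adjusted p = 0.0899).

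ZmUBQ libraries had another shape. Their plus strand 24 to 23 nt ratio had medians of 2.12 in fully green, 2.01 in fully red and 2.28 in always red libraries, above the 35S ratio of each colour (exact permutation, adjusted p = 0.00180, 0.00117 and 0.00267). Minus strand medians were 2.73, 1.88 and 1.90, below the 35S ratio of each colour (exact permutation, adjusted p = 0.00265, 0.000260 and 0.0236). The call for always red plants on the minus strand ended without MK056 number 2 (exact permutation, adjusted p = 0.0559), at 100 reads or more (0.323) and with 1 mean per event (0.268). Event means also ended the call for always red plants on the plus strand (exact permutation, adjusted p = 0.0714) and both calls for fully green leaves (each 0.0612). Here and for 24 to 25 nt below, the always red plus strand value with event means comes from the smallest raw p that 2 values against 6 allow. The ratio of 24 to 25 nt under ZmUBQ had plus strand medians of 7.84 in fully green, 2.63 in fully red and 3.84 in always red libraries, also above 35S in each colour (exact permutation, adjusted p = 0.000649, 0.000261 and 0.00267; 0.0714 for always red plants with 1 mean per event). Its minus strand medians of 9.97, 9.08 and 9.45 did not differ from 35S by the test (exact permutation, adjusted p = 0.147, 0.698 and 0.278), though the last was called with 5 reads added to each count (0.87 on the log2 scale, adjusted p = 0.00907). Red ZmUBQ leaves were therefore richer in 23 nt reads relative to 24 nt on the minus strand than all 12 fully red 35S libraries with enough reads. The plus strand 24 nt peak was present in 6 of 7 fully red ZmUBQ libraries and 7 of 13 fully red 35S libraries, a difference that was not tested.

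Set against 21 nt reads of the same strand, 24 nt reads were a nearly fixed share on the minus strand of 35S plants. In 60 of 61 35S Col-0 libraries, all with enough reads, minus strand 24 nt reads were 1.29 to 3.47% of 21 nt reads, with a median of 2.46%. Over these libraries the minus strand 21 nt level itself ran from 33.1 to 43620 RPM. The group medians were 2.69% in fully green leaves, 2.15% in green parts, 2.84% in always green plants, 1.76% in red parts, 2.68% in fully red leaves and 2.68% in always red plants. Fully green and fully red leaves differed 1.00-fold (95% interval 0.914 to 1.11; exact permutation, adjusted p = 0.955), and fully red leaves and always red plants 0.999-fold (0.892 to 1.11; permutation, adjusted p = 0.979). Red parts had a lower share than fully red leaves, at 0.654 of it (0.573 to 0.748; permutation, adjusted p = 0.000115), and lower in 12 of 12 pairs. Green parts exceeded red parts 1.28-fold (permutation, adjusted p = 0.00489), and fully green leaves exceeded green parts 1.20-fold (exact permutation, adjusted p = 0.0183; 0.0853 with 1 mean per event).

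Minus strand 23 nt reads were also a small share of 21 nt reads in 35S Col-0 plants, with medians between 0.672% in always red plants and 0.927% in always green plants. None of the 7 comparisons among these groups was called for this ratio (permutation, adjusted p from 0.0866 to 0.840). With the 9 pairs as blocks, it was called higher in fully green leaves than in green parts, by 0.11 on the log2 scale and in 8 of 9 pairs (exact sign-flip permutation, adjusted p = 0.0174). Without green parts of MK040 number 2 the unpaired difference was called too, at 0.18 (permutation, adjusted p = 0.0119). Red parts thus stood below fully red leaves in 24 nt reads per 21 nt read (1.76 and 2.68%) and at 0.921 of them in 23 nt reads per 21 nt read (95% interval 0.789 to 1.08). The latter difference was called with 5 reads added to each count (-0.29 on the log2 scale, permutation, adjusted p = 0.00572) and without fully red MK025 number 1 (-0.20 on the log2 scale, permutation, adjusted p = 0.0429).

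On the plus strand the share of 24 nt differed between fully green and fully red leaves. It was 2.98% of 21 nt reads in fully green leaves (range 2.50 to 3.75%), 15.5% in fully red leaves (4.27 to 79.0%) and 21.8% in always red plants (13.4 to 33.1%). Fully green leaves were at 0.203 of the fully red ratio with no overlap (95% interval 0.113 to 0.362; exact permutation, adjusted p = 0.000244). The highest fully red value, 79.0%, is MK044 number 3, whose plus strand held 62 reads of 21 nt and 49 reads of 24 nt. In dcl1234 the plus strand share was 95.3% (81.2 to 101%), 4.59-fold above always red Col-0 plants with no overlap (exact permutation, adjusted p = 0.000115). The minus strand share there was 12.5% (6.25 to 25.8%), 5.15-fold above Col-0 (exact permutation, adjusted p = 0.000115), at a minus strand 21 nt level of 5.31 to 7.13 RPM. Both dcl1234 calls ended with 1 mean per event (exact permutation, each adjusted p = 0.0804), a value set by the smallest raw p that 2 values against 6 allow. Green parts had a median plus strand share of 2.66% against 3.89% for their red counterparts, a difference that was not called (permutation, adjusted p = 0.115), nor was fully red against always red (permutation, adjusted p = 0.360). The former was called without libraries under 8 M mapped reads (-0.79 on the log2 scale, permutation, adjusted p = 0.000378) and without red parts of MK016 number 5, MK025 number 1 or MK044 number 3 (permutation, adjusted p = 0.0462, 0.0398 and 0.0398).

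Red ZmUBQ tissue departed from the minus strand proportion of 35S plants. In fully green ZmUBQ leaves, 24 nt reads were 2.46% of 21 nt reads on the minus strand (range 2.07 to 4.10%), and the ratio stood at 0.990 of the 35S fully green one (95% interval 0.836 to 1.19; exact permutation, adjusted p = 0.949). In fully red ZmUBQ leaves the share was 31.4% (12.2 to 121%). The always red ZmUBQ libraries showed 204% and 26.8% in MK054 numbers 1 and 2 and 85.0% and 58.1% in MK056 numbers 2 and 4. All fully red ZmUBQ libraries exceeded all 12 fully red 35S libraries with enough reads, 13.7-fold on average (3.77 on the log2 scale; exact permutation, adjusted p = 0.000129). Always red ZmUBQ plants exceeded always red 35S plants 27.3-fold (16.3 to 45.3; exact permutation, adjusted p = 0.00201), again with no overlap. The same ratios at 23 nt were 24.4-fold and 48.3-fold higher (exact permutation, adjusted p = 0.000129 and 0.00201). With 1 mean per event, 2 values against 6, the always red calls ended at both lengths (exact permutation, each adjusted p = 0.0804). That value is set by the smallest raw p that so few values allow.

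Within ZmUBQ, 21 nt reads changed far more between the colours than 24 nt reads did. MK056 number 5 held 942 and 1297 RPM of 21 nt reads in its green leaf, plus strand first, and 31.9 and 29.4 RPM in its red leaf. Its 24 nt reads were 32.0 and 40.5 RPM in green and 35.3 and 35.6 RPM in red. The red leaf thus held more 24 nt than 21 nt reads on both strands. So did fully red MK056 number 6, with 29.1 against 26.7 RPM on the minus strand, and always red MK054 number 1, with 20.7 against 10.2 RPM. In fully red and always red ZmUBQ libraries, 24 nt was the second most abundant of 11 lengths on each strand by summed reads. In 35S Col-0 groups it was the fifth or the sixth.

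The change from red to green was compared between the promoters over 9 pairs of 35S and 7 pairs of ZmUBQ leaves. The 24 nt minus level rose 61.3-fold in 35S pairs and 5.43-fold in ZmUBQ pairs (difference of 3.50 on the log2 scale, exact permutation, adjusted p = 0.000699). For 24 nt plus the folds were 13.8 and 3.23 (exact permutation, adjusted p = 0.00956). At 23 nt they were 47.2 and 3.80 on the minus strand and 9.72 and 3.26 on the plus strand (exact permutation, adjusted p = 0.000699 and 0.00956). The minus strand ratio of 24 to 21 nt changed by 0.07 on the log2 scale in 35S pairs, positive in 5 of 8, and by -3.78 in ZmUBQ pairs, negative in 7 of 7 (exact permutation, adjusted p = 0.000699). The 24 to 23 nt ratio changed by 0.50 and -0.05 on the plus strand (exact permutation, adjusted p = 0.0170) and by -0.03 and 0.48 on the minus strand (exact permutation, adjusted p = 0.000699). All 8 promoter tests passed with these pairs, whose members correlated above 0.1 in 4 of 9 and 3 of 7 cases. Without the pairing, over all libraries, the 23 nt plus test did not pass (1.55 on the log2 scale, permutation, adjusted p = 0.109).

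Over the 10 group means, the slope of 24 nt on 21 nt, both as log2(RPM + 1), was 0.49 on the plus and 0.65 on the minus strand, as a description with no test. A slope of 1 would mean a fixed proportion. Within the 6 groups of 35S in Col-0, the minus strand slope was 0.95 and the plus strand slope 0.65, while the 3 ZmUBQ groups gave 0.34 and 0.28. For 23 nt the 35S Col-0 slopes were 0.89 on the minus and 0.55 on the plus strand. Measured from the minus strand line of the 6 groups, fully green ZmUBQ leaves lay at 1.02-fold, fully red ZmUBQ leaves at 11.7-fold, always red ZmUBQ plants at 22.3-fold and dcl1234 at 7.40-fold. The last 3 groups had minus strand 21 nt values of 5.70, 5.04 and 2.84, below the lowest of the 6 groups (6.77, always red). Their folds extend the line past its range. For always red ZmUBQ plants (4.57 at 24 nt) the line lay 4.48 lower, where the added 1 RPM governs the fold. For dcl1234 (0.89) it lay 2.89 lower, a negative value that log2(RPM + 1) cannot take, so dcl1234 could only lie above it. The 6 groups themselves lay between 0.672-fold, in red parts, and 1.21-fold, in always green plants. On the plus strand the same 4 groups stood at 0.548-fold, 2.28-fold, 2.76-fold and 4.00-fold, the last 3 again below the 21 nt range of the 6 groups.

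Over libraries within a group, 24 and 21 nt levels moved together in most groups. The relation was computed in 8 groups with at least 6 libraries and on both strands, and 12 of these 16 correlations passed (permutation, adjusted p under 0.05). In fully green leaves Pearson's r was 0.99 on both strands (exact permutation, adjusted p = 9.45e-05 for plus and 7.35e-05 for minus), with Spearman's rho of 0.97 and 0.93 (exact permutation, p = 0.000165 and 0.000750). In green parts r was 0.98 on both strands (permutation, p = 1e-05, the smallest that the resamples can give, adjusted p = 4e-05), and rho 0.92 and 0.94 (permutation, p = 4e-05 and 2e-05). Red parts gave r of 0.92 and 0.99 (permutation, adjusted p = 6.4e-05 and 4e-05) and rho of 0.91 and 0.98 (permutation, p = 5e-05 and 1e-05), plus strand first. Without the 2 libraries farthest from the median 21 nt level, r was 0.98 and 0.97 for fully green leaves, 0.94 and 0.96 for green parts and 0.83 and 0.99 for red parts.

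In fully red 35S leaves the strands parted again. On the minus strand r was 0.99 (permutation, adjusted p = 4e-05; rho 0.94, permutation p = 1e-05; r 0.99 without the 2 farthest libraries). The plus strand r was 0.05 (permutation, adjusted p = 0.915; rho -0.04, permutation p = 0.892; r 0.09 without the 2 farthest). Plus strand 24 nt reads of fully red leaves varied 17.3 to 54.2 RPM while 21 nt reads varied 68.5 to 728 RPM. Always red plants gave r of 0.80 and 0.95 (permutation, adjusted p = 0.00201 and 0.000180) and rho of 0.74 and 0.94 (permutation, p = 0.0128 and 0.000150), and r of 0.57 and 0.78 without the 2 farthest libraries. In dcl1234 r was 0.84 on the plus strand (exact permutation, adjusted p = 0.0214; rho 0.83, exact permutation p = 0.0154; r 0.68 without the 2 farthest) and 0.05 on the minus strand (exact permutation, adjusted p = 0.915; rho -0.12, exact permutation p = 0.793; r 0.05 without them).

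Fully green ZmUBQ leaves gave r of 0.99 on both strands (exact permutation, adjusted p = 0.000317) and rho of 1 on both (exact permutation, p = 0.000397), and r remained 0.99 without the 2 farthest libraries. In fully red ZmUBQ leaves r was 0.12 and 0.07 (exact permutation, adjusted p = 0.915 for both; rho -0.39 on both strands, exact permutation p = 0.396). Without the 2 farthest libraries, r there was -0.95 and -0.78 over 5 libraries, so the value near 0 rests on those 2. Libraries of 1 event and their shared mapped total enter both axes of all these relations.

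The balance of the strands differed between the groups. The minus strand held a median of 58.9% of 24 nt reads in fully green, 57.9% in green parts, 48.1% in always green, 47.0% in red parts, 20.4% in fully red and 13.1% in always red 35S libraries. It held 1.99% in dcl1234. For 23 nt the medians were 43.6, 46.0, 34.4, 31.5, 8.46, 3.99 and 1.07% in the same order, lower than at 24 nt in each group. Under ZmUBQ, 56.3% of 24 nt reads in fully green, 44.4% in fully red and 48.3% in always red libraries were on the minus strand. Of 23 nt reads, it held 46.4 to 62.1% in fully green and medians of 45.1 and 52.7% in fully and always red libraries. The ratio of minus to plus reads at 24 nt was 6.21-fold higher in fully green than in fully red 35S leaves (95% interval 2.77 to 14.4; exact permutation, adjusted p = 0.000523). It was 1.71-fold higher in fully green than in fully red ZmUBQ leaves, with no overlap (1.42 to 2.07; exact permutation, adjusted p = 0.00152). Always red ZmUBQ plants exceeded always red 35S plants 6.45-fold at 24 nt and 25.8-fold at 23 nt, with no overlap (exact permutation, each adjusted p = 0.00159). In dcl1234 the ratio was at 0.160 of that in always red Col-0 plants at 24 nt and at 0.270 at 23 nt, again with no overlap (exact permutation, each adjusted p = 0.000115). With 1 mean per event these always red ZmUBQ and dcl1234 calls ended (exact permutation, each adjusted p = 0.0584). That value comes from the smallest raw p that 2 values against 6 allow, so the event means could not have given a call.

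Across the 10 group means, each class was compared with the other 21 by the root mean square difference of centred log2(RPM + 1) values. The minus strand classes of 23 and 24 nt were each other's nearest class, at 0.37, and the next nearest were 25 nt minus at 0.81 for 23 nt and 18 nt minus at 1.05 for 24 nt. Plus strand 24 nt reads were nearest to 27 nt minus at 0.32 and 26 nt minus at 0.33, and plus strand 23 nt reads to 18 nt plus at 0.28 and 24 nt plus at 0.42. The class farthest from each plus strand class was 21 nt minus (2.83 for 23 nt and 2.67 for 24 nt).

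Among fully green 35S leaves, mean minus strand 24 nt levels ran from 251 RPM in MK044 (1 library) to 963 RPM in MK040 (2 libraries). The summed minus strand 24 nt reads of the 6 events were 2.31 to 2.92% of their 21 nt reads, and 2.84 to 3.34 times their 23 nt reads. In fully red ZmUBQ leaves the minus strand share of 24 nt differed by event, from 12.9% in MK054 through 31.0% in MK055 to 115% in MK056. Mean minus strand 24 nt levels in these leaves were 17.6, 14.8 and 32.4 RPM, in the same order of events. No test was made between events.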

How the data were processed

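Per the labels' protocols, TRIzol RNA of leaves was made into TruSeq small RNA libraries, and the submitters' processing notes name TAIR 10. The sources used here give no aligner, trimming or rule for reads with several matches. The authors deposited 1 count and 1 RPM value per length (18 to 28 nt) and strand of RUBY. RPM, recomputed as count per mapped reads times 1000000, matched the deposited RPM in all libraries within a relative tolerance of 1e-06. Combinations that the files do not list were set to 0. The members, lists and comparisons were chosen with earlier results of these data known.

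Levels were log2(RPM + 1). Ratios had 0.5 reads added to each count and needed 20 reads in both counts together. Groups followed the labels. Differences of means were tested by two-sided permutation, by full enumeration if either group held under 10 libraries, else by 100000 resamples, and adjusted by Benjamini-Hochberg over 286 tests of levels, 52 of 24 nt to its neighbours, 52 to 21 nt, 26 of strands, 16 correlations and 8 promoter tests. Intervals hold shifts not rejected at 0.05. Since 22 classes of 1 transgene share too little for a pooled spread, edgeR 4.0.16 (R 4.3.3) on the deposited counts was the alternative; Python 3.11.15, numpy 2.4.6, pandas 2.3.3 and scipy 1.17.1 did the rest. The test was checked on simulated data. Named libraries are the lowest and highest of a group, pairs that go against the others and those whose omission changed a call (fully red MK056 number 6 was named after its values were seen); named classes beyond 23 and 24 nt are ratio partners and the 2 nearest in pattern.

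Libraries with the same event and number were paired because they come from the same insertion line. The labels do not say that the number marks the same plant. The 9 pairs with fully green 35S leaves came from 6 events and the 7 ZmUBQ pairs from 3, and pairs of 1 event were treated as independent. Their length and strand profiles, after group means were removed, correlated above 0.1 in 9 of 9 pairs of fully green leaves with green parts, 10 of 13 of red parts with fully red leaves, 7 of 13 of green with red parts, and 4 of 9 and 3 of 7 of fully green with fully red leaves (35S and ZmUBQ). Of 402 library pairs within groups, a chi-squared test did not separate 3 from sampling noise. These came from different events, none had identical counts, and they were kept apart, with averaging as an alternative chosen after seeing the data.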

Additional observations from a re-analysis of the deposited data

Results flagged for a closer look

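Of 69 combinations of a group of 4 to 10 libraries and a measure, 1 held a library far from the others, where chance gives about 1 in 20. In dcl1234, the plus strand ratio of 24 to 21 nt reads of MK073 number 3 was -0.30 on the log2 scale, or 0.812, and the next lowest of the 8 libraries was 0.928. Its cause was not tested.

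In 8 measures the change from fully red to fully green differed between 35S and ZmUBQ pairs by the test of the difference itself, given with the promoter comparison above. On the log2 scale, the 35S change exceeded the ZmUBQ change by 1.58 for 23 nt plus, 3.64 for 23 nt minus, 2.09 for 24 nt plus and 3.50 for 24 nt minus. For the ratio of 24 to 23 nt the difference was 0.55 on the plus and -0.51 on the minus strand. For the ratio of 24 to 21 nt it was 2.08 on the plus and 3.85 on the minus strand. Promoter and library set cannot be told apart.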

How the results depend on the processing

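Values below are on the log2 scale, with adjusted p in brackets from permutation unless edgeR is named. Leaving out 1 library at a time gave 3434 values for differences, correlations and promoter tests, of which 3351 kept their direction and side of the threshold, 36 lost a call, 47 gained one and 0 called ones reversed; among uncalled differences 56 turned sign. The call for 24 nt minus in fully green against green parts was the least stable. It was 1.05 at a pseudocount of 0.1 RPM (0.0512), 1.05 with values under 1 RPM at 0 (0.0520), 5.92 rank units on ranks (0.0545), 0.80 by edgeR (0.109), 0.11 by edgeR with TMM (0.256), 0.95 with 1 mean per event (0.168), 1.01 without libraries under 8 M mapped reads (0.0915), 1.05 with libraries within sampling noise averaged (0.0503), and 0.86 to 1.21 without 1 library. For 24 nt minus in fully red against always red 35S, it was 1.03 at a pseudocount of 0.1 RPM (0.159), 0.38 by TMM (0.170), 0.91 with 1 mean per event (0.205) and 0.88 to 1.31 without 1 library. For 24 nt plus in red parts against fully red leaves, edgeR gave 1.43 (0.00774), and leaving out 1 library gave 0.44 to 0.87. The same range was 0.93 to 1.33 for 24 nt plus in fully green against green parts, and for fully red ZmUBQ against 35S leaves -0.49 to -0.29 for 24 nt plus and 1.02 to 1.45 for 24 nt minus.

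With the replicate block (pairs of the same event and number), 24 nt plus gained its call in fully green against green parts, at 0.83 (0.00716), as did 23 nt on both strands, and lost it in fully green against fully red ZmUBQ leaves, at 1.69 (0.0755). Calls over the 5 paired comparisons went from 15 to 17 of 20 for levels, 10 to 11 of 20 for ratios to neighbours, 12 to 15 of 20 for ratios to 21 nt and 7 to 8 of 10 for strand balance. Without the block 7 of the 8 promoter tests passed, all but 23 nt plus at 1.55 (0.109). With 1 mean per event, calls fell from 27 to 15 of 36 for levels, 19 to 11 of 36 for neighbours, 19 to 9 of 36 for 21 nt and 13 to 7 of 18 for strands, over comparisons with enough events for an unadjusted p of 0.05 or less; always green plants (1 event) and comparisons within ZmUBQ were not run. For dcl1234 and always red ZmUBQ against always red 35S, the smallest possible p stayed above 0.05 after adjustment. The falls thus include calls that these comparisons could not keep. Lost 24 nt calls were fully red against always red 35S plus at 0.71 (0.0655), dcl1234 plus at 0.78 (0.244) and minus at -1.10 (0.0655), ZmUBQ against 35S fully green plus at -2.52 (0.0655) and ZmUBQ against 35S always red minus at 2.63 (0.0655). For event means fewer values enter, which by itself limits the p.

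TMM over the RUBY classes rescales by the transgene's own reads, and edgeR with it reversed the sign of these differences. Brackets here hold edgeR's adjusted p, given where it was above 0.05. The other reversed differences were called. For 23 nt plus and 24 nt plus they were -1.97 and -1.29 in fully green against fully red 35S, -0.81 and -0.38 (0.0578) in green against red parts, -1.53 and -1.32 in red parts against fully red, and -2.40 and -1.61 in always green against always red. For 24 nt plus it was -0.23 (0.474) in fully red against always red. In fully green against fully red ZmUBQ it was -1.22 and -0.96 for 23 nt plus and minus and -1.24 and -0.54 for 24 nt plus and minus. For ZmUBQ against 35S it was 0.50, 0.19 (0.326) and 0.20 (0.254) for 23 nt minus, 24 nt plus and 24 nt minus in fully green leaves, and 0.33 (0.447) and 1.32 for 23 nt plus and 24 nt plus in fully red leaves. TMM ended the 24 nt minus call in red parts against fully red leaves, at 0.36 (0.254), and made calls for ZmUBQ against 35S of 3.23 for 24 nt minus in fully red leaves and 1.15 for 24 nt plus in always red plants.

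The slope of 24 on 21 nt over groups on the plus strand moved to 0.42 without always green plants, by more than its standard error of 0.07. Leaving out 1 always green library was run for levels only, by edgeR, with the lone library assumed to vary like the others. Low counts limit the minus strand of dcl1234 and of fully red MK044 number 3.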
